A study of Mus musculus with 32 samples.

Results

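The transcripts described here are 10 genes of the epithelial-mesenchymal transition, a list of symbols set by no threshold on measured values, though chosen with earlier results of these data known: Cdh1, Epcam, Ocln, Vim, Cdh2, Zeb1, Zeb2, Snai1, Snai2 and Twist1. They are 10 of the 55103 rows of the deposited table, and all 10 passed the filter on low counts that kept 20474 genes. Bulk RNA sequencing was done on 32 tumours grown from KPC36, a mouse line labelled as malignant, whose genotype is not given in the sources used here. There were 4 groups of 8 libraries: carbon-ion irradiated tumours with their own untreated controls, and photon-irradiated tumours, again with untreated controls of their own. Carbon ions are heavy charged particles whose energy is released mostly where they stop; photons are conventional radiotherapy. Tumours were collected on day 4 or day 7, but the day of a library, the dose, and the strain, sex and age of the mice are not given in the sources used here. All libraries therefore came from 1 line, and nothing in the labels says which libraries came from separate animals, so p-values measure the spread between these libraries.

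In the epithelial-mesenchymal transition, epithelial cells lose their junctions and gain a migratory, mesenchymal character. Transcription factors of the Snail, Zeb and Twist families repress junction genes such as Cdh1, and Snail and Zeb proteins do so by binding E-box letters in their promoters. In pancreatic ductal tumours the same factors are also made by fibroblasts and immune cells of the stroma, so a level in whole tumour tissue is a sum over cell types. Fewer cells of a type and less RNA per cell cannot be told apart in such libraries.

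The E-box letters bound by Snail and Zeb proteins, CACCTG on either strand (read as CAGGTG on the other), were searched for in RefSeq promoters of build GRCm38.p6, which run from 250 bases before to 50 bases after a start site. A promoter was found for 6 of the 10 genes (Epcam, Ocln, Vim, Zeb2, Snai1 and Twist1), and 3 of these 6 held the letters. Of all 27025 genes with a promoter in the table, 22.6% held them in at least 1 promoter. The 5 sites are shown because these letters are the link by which Snail and Zeb proteins are known to act on junction genes; Snai1 itself also holds a site. Each line gives the strand of the gene, 5′ to 3′, with the E-box in capitals and the position of its first base relative to the start site.
Epcam, position -187, chr17:87635780-87635809, plus strand: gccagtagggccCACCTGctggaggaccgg
Epcam, position -19, chr17:87635948-87635977, plus strand: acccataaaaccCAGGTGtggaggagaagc
Ocln, position 8 after its first start, chr13:100552694-100552723, minus strand: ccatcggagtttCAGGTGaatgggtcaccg
Ocln, position -68 from its second start, chr13:100552549-100552578, minus strand: ctaggggctcggCAGGTGggtcccagcgca
Snai1, position -126, chr2:167538057-167538086, plus strand: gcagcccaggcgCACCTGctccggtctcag
The first Ocln site also lies within the window of the second start, at position -213. The single Epcam window held 2 sites, as did 2.88% of all 32851 promoters (2 or more), and the windows of Vim, Zeb2 and Twist1 held none. A match is a description of letters only. Factor binding was not measured here.

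Library totals ran from 13891863 to 71645903 estimated counts, so that even the scarcest of the 10 transcripts in its lowest library, Snai2, had 120 counts. Levels are given as CPM, the share of the library total after scaling by trimmed mean of M values (TMM). A title letter D marks 4 carbon-ion controls and 3 of the tumours given carbon ions, and all others have M; the meaning of the letter is not stated. The photon arm has M titles only, so values for M-titled libraries alone are given beside many of the results. In the photon arm every irradiated library has a higher title number than every photon control and every library of the carbon-ion arm. The photon effect therefore cannot be separated from title number, and using M-titled libraries alone does not change this. Title numbers of irradiated and control libraries overlap in the carbon-ion arm. Whether title number bears on the values was not tested. The 10 markers fixed for ductal and tumour epithelium all passed the filter, with a summed level between 2985 and 5845 CPM. Of 8 acinar markers, 1 passed, and Ptf1a was at 0 in all 32 libraries. Of the 12 fibroblast markers all passed, with a sum between 6402 and 29470 CPM. Which cells made this RNA cannot be told from these libraries.

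The 10 transcripts spanned a wide range of abundance when levels were divided by exon length. Over 32 libraries, Vim, the intermediate filament of mesenchymal cells, was highest at 328 ± 64.0 CPM per kb (mean ± SD, n = 32). Cdh1, the E-cadherin of adherens junctions, came second at 163 ± 34.6 CPM per kb. Both the leading mesenchymal and the leading epithelial transcript were thus abundant in the same tissue. The remaining 8 lay far lower. The helix-loop-helix factor Twist1 had 23.02 ± 3.17 CPM per kb, the surface glycoprotein Epcam 15.9 ± 8.66, and the zinc-finger repressor Zeb1 10.7 ± 1.03. Snai1, the Snail repressor, stood at 6.40 ± 3.24 CPM per kb, Zeb2 at 5.47 ± 1.48 and Cdh2, the N-cadherin of mesenchymal and neural cells, at 5.04 ± 1.55. Ocln, the tight junction protein occludin, stood at 4.37 ± 1.55 CPM per kb and Snai2, the Slug repressor, at 3.74 ± 0.836. From Snai1 downward each neighbour in this order differed from the next by less than the larger of their SDs, and so did Twist1 and Epcam, and Epcam and Zeb1. The SDs cover all groups.

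The genes also differed in how far libraries spread. Zeb1 was the most even, with 1.51-fold between the highest and lowest of 32 libraries. Twist1 spanned 1.74-fold and Vim 2.08-fold. Epcam spanned 8.68-fold, Ocln 5.24-fold and Snai1 5.22-fold. In the carbon-ion irradiated group the coefficient of variation of Cdh1 was 27.3%, against 11.3% in its controls. That of Snai1 was 64.2% in the carbon-ion irradiated group and 26.2% in its controls. The value of 64.2% rests on replicate 8, at 24.0 CPM with the next library at 10.9 CPM. In the photon arm Snai1 had 29.5% in irradiated tumours and 46.2% in controls. These differences in spread were not tested.

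**Figure D1:**
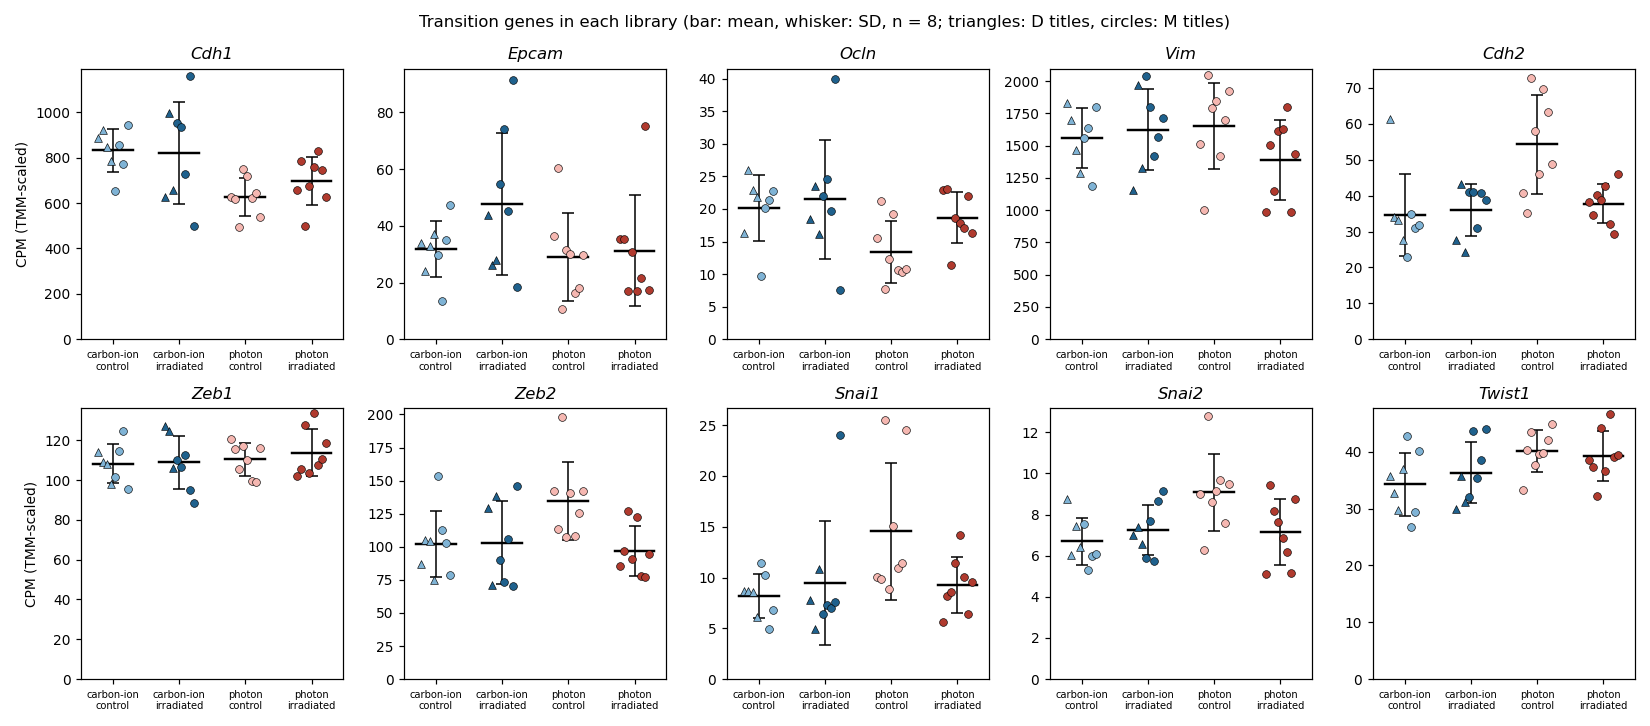
Level of each gene in CPM (vertical axis, linear from 0) in the 4 groups of 8 libraries. Points are libraries (triangles have D titles, circles M titles), bars are means and whiskers SD. Photon controls lie highest on average for Vim, Cdh2, Zeb2, Snai1, Snai2 and Twist1 and lowest for Cdh1, Epcam and Ocln. For Vim, Twist1 and Epcam the mean of another group is close.

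The first question was whether carbon ions changed these genes. None of the 10 passed an adjusted p of 0.05 in edgeR's quasi-likelihood test, where 0% of all 20474 genes passed (0 genes; 1177 had an unadjusted p under 0.05, and DESeq2 called 17). None of the 10 had an unadjusted p under 0.05. The median log2 fold change of the 10 was 0.07, beside 0.01 over all genes tested.

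Among the epithelial adhesion genes, Cdh1 had a lowest, median and highest level of 501, 832 and 1160 CPM in carbon-ion irradiated tumours and of 652, 851 and 944 CPM in their controls. The irradiated libraries lay both above and below the controls, and the log2 fold change was -0.02 (SE 0.13). Epcam, a marker of carcinoma cells, ran from 18.3 through a median of 44.6 to 91.4 CPM after carbon ions and from 13.5 through 33.4 to 47.4 CPM in the controls. Its log2 fold change of 0.59 (SE 0.34, adjusted p = 0.932 in edgeR) was the largest of the 10, and 5 of its 8 values exceeded the control median. Ocln averaged 21.5 ± 9.16 CPM against 20.1 ± 5.003 (SD, n = 8 each).

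The mesenchymal genes and repressors had small differences as well. Vim averaged 1625 ± 313 CPM after carbon ions and 1558 ± 231 CPM without. Cdh2 averaged 36.0 ± 7.21 against 34.6 ± 11.4 CPM. Zeb1 had the narrowest estimate, a log2 fold change of 0.01 (SE 0.07), from 109 ± 13.2 and 108 ± 9.67 CPM. Snai1 had a log2 fold change of 0.21 (SE 0.27), and 2 of 8 values exceeded the control median: 1 library, replicate 8, reached 24.0 CPM, against a group median of 7.45, and without it the log2 fold change of Snai1 was -0.14 (SE 0.23). Zeb2, Snai2 and Twist1 had log2 fold changes of 0.01, 0.11 and 0.08 (SE 0.16, 0.14 and 0.10). With M-titled libraries only, no gene was called, and some values moved: Cdh2 had a log2 fold change of 0.37 (SE 0.18, adjusted p = 0.564 in edgeR) and Epcam of 0.89 (SE 0.49, adjusted p = 0.603). Cdh1, Zeb1 and Zeb2 changed sign, to 0.11, -0.07 and -0.19. A p that misses the threshold does not show that carbon ions left these genes alone; the SEs give the size of change that could be seen. Among the markers of other cell types, all 7 adipocyte markers tested had negative log2 fold changes for carbon ions (median -2.88) and none was called; their sums ran from 20.9 to 46.7 CPM (median 28.96) in irradiated tumours and up to 409 CPM (median 33.2) in controls. Of these markers, Adipoq, Plin1, Lep and Cfd were near 0, with medians of 0.167, 0.163, 0.0102 and 0.638 CPM over 32 libraries. The part of adipocytes in these values was not tested.

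For photons the same test called 3.81% of all genes (781 of 20474) and none of the 10 transition genes, although 5 of the 10 had an unadjusted p under 0.05, beside 21.5% of all genes. The 3 epithelial genes had positive log2 fold changes; that of Epcam, 0.10, was -0.21 without photon-irradiated replicate 7, its highest library at 75.2 CPM, and -0.02 without photon control replicate 3. Both mesenchymal genes and 4 of the 5 factors had negative ones, with Twist1 at -0.03; Zeb1 was at 0.04. The median over the 10 was -0.14, beside 0.00 over all genes (-0.000605).

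Cdh2 came nearest to the threshold. Its lowest, median and highest levels were 29.4, 38.6 and 46 CPM in photon-irradiated tumours and 35.1, 53.3 and 72.9 CPM in photon controls. None of the 8 irradiated libraries reached the control median, but the ranges overlapped. The log2 fold change was -0.52 (SE 0.16, adjusted p = 0.0599 in edgeR). It passed the threshold with DESeq2, with M-titled libraries only, with the photon groups fitted alone, and without photon control replicate 2 (adjusted p = 0.0228); without photon control replicate 3 it was 0.160.

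Zeb2, a repressor also made by macrophages and other leukocytes, had levels of 77.05, 92.8 and 127 CPM after photons and 107, 133 and 198 CPM in the controls. Again none of the irradiated libraries reached the control median, with a log2 fold change of -0.48 (SE 0.16, adjusted p = 0.0829 in edgeR). Zeb2 overlaps the antisense gene Zeb2os and other small genes in the annotation, and the strand setting of the authors' counting is not given in the sources used here, so part of its counts may belong to those.

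Snai1 had levels of 5.65, 9.05 and 14.2 CPM after photons and 8.92, 11.2 and 25.5 CPM in the controls (log2 fold change -0.66, SE 0.27, adjusted p = 0.149). Snai2 averaged 7.17 ± 1.61 against 9.08 ± 1.87 CPM (log2 fold change -0.34, SE 0.14, adjusted p = 0.155). Ocln averaged 18.7 ± 3.95 against 13.4 ± 4.76 CPM (log2 fold change 0.47, SE 0.23, adjusted p = 0.224), and 7 of 8 values exceeded the control median. These edgeR values miss the threshold, and in each case the groups overlap.

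Of the others, Vim had a log2 fold change of -0.25 (SE 0.14), Cdh1 of 0.15 (SE 0.13) and Epcam of 0.10 (SE 0.34). Cdh1 averaged 697 ± 104 CPM after photons and 627 ± 83.4 CPM in controls. Zeb1, at 114 ± 11.8 and 110 ± 8.29 CPM, and Twist1, at 39.2 ± 4.46 and 40.1 ± 3.64 CPM, were as even here as with carbon ions.

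Some markers of stromal cells differed in the same comparison, where 3.81% of all genes were called. The sum of 12 fibroblast markers ran from 10420 to 18800 CPM (median 12850) after photons and from 13890 to 29470 (median 17870) in controls. All 12 had negative log2 fold changes, and Pdgfrb and Fap passed the test. All 10 macrophage markers were negative, with Csf1r and Mrc1 called, and their sum had a median of 549 CPM after photons (377.8 to 739.7) against 829.9 in controls (552.9 to 1126). Among 10 endothelial and pericyte markers, again all negative, Emcn, Rgs5 and Tek were called; their sums ran from 308.3 to 667.1 and from 440.8 to 843.1 CPM. The 10 skeletal muscle markers had a median log2 fold change of -2.87 with none called, and sums from 4.93 to 379 CPM after photons and from 7.55 to 1449 CPM in controls. Of 7 adipocyte markers tested, 6 were negative and none was called, with a median of -1.43; their sums ran from 15.2 to 64.6 CPM (median 20.15) after photons and from 17.9 to 99.5 CPM (median 25.8) in controls. Of 8 leukocyte markers tested, Coro1a and Cd3d were called lower and Cd8a higher, with a median of -0.59. Cd3d and Cd8a were scarce, averaging 0.144 and 0.486 CPM after photons and 0.592 and 0.199 CPM in controls. The sum over the leukocyte list ran from 119.6 to 206.4 CPM after photons and from 163.7 to 294.6 CPM in controls. Of the 10 ductal markers, Msln was called higher (log2 fold change 0.43, SE 0.12, adjusted p = 0.0325 in edgeR), and their sums ran from 2985 to 4989 and from 3543 to 4816 CPM. Fap, Mrc1 and Coro1a were not called with M-titled libraries only (adjusted p = 0.0574, 0.0567 and 0.0577). When 1 library was left out, each of these marker calls was lost in some of 16 fits, with Emcn kept in 13, Pdgfrb in 11, Rgs5 in 10, Csf1r in 9, Coro1a and Msln in 8, Fap and Tek in 7, and Mrc1, Cd3d and Cd8a in 5. The part of these cells in the values of Cdh2, Zeb2, Snai1 and Snai2 was not tested.

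**Figure D2:**
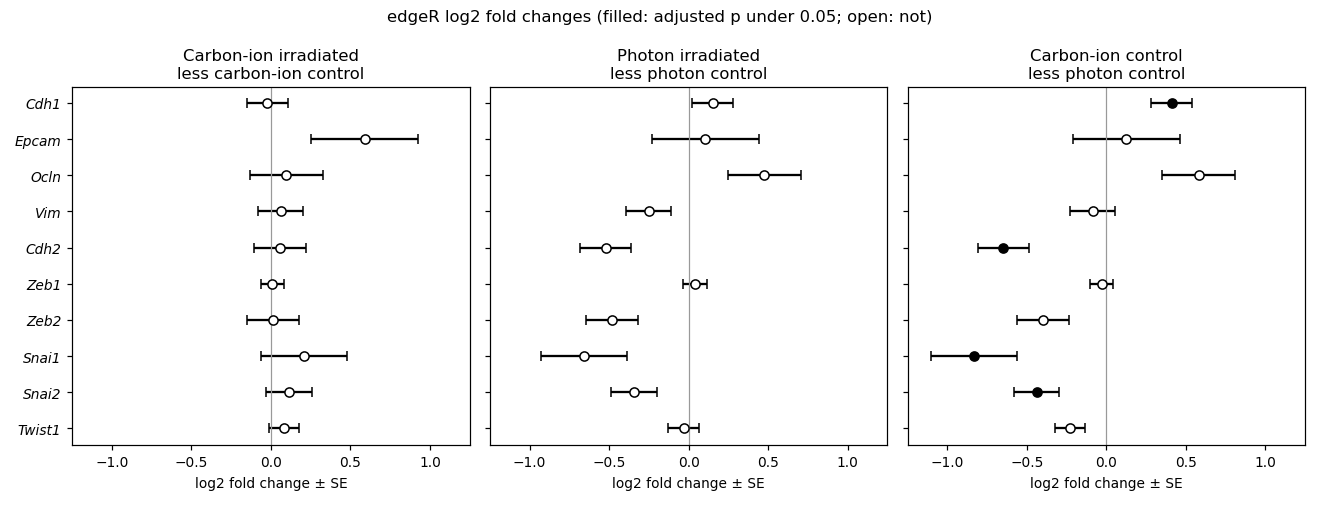
Log2 fold change of each gene (horizontal axis, point ± SE from edgeR) for carbon ions against their controls, photons against their controls, and carbon-ion controls against photon controls. Filled points have an adjusted p under 0.05: none in the first and second comparison and 4 (Cdh1, Cdh2, Snai1 and Snai2) in the third.

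Whether the beams differed in their effects was asked with the difference of the log2 fold changes, carbon ions less photons. None of the 10 was called, where 0.0781% of all genes were (16 of 20474, but 270 with DESeq2, 1 with M-titled libraries only, and 5 to 108 when each library was left out, without carbon-ion control replicate 8 and photon control replicate 2). Cdh2 had a difference of 0.58 (SE 0.23, adjusted p = 0.280 in edgeR), Snai1 of 0.86 (SE 0.38, adjusted p = 0.333), Snai2 of 0.46 (SE 0.20, adjusted p = 0.336) and Zeb2 of 0.49 (SE 0.23, adjusted p = 0.363). These were the 4 of 10 with an unadjusted p under 0.05, beside 13.04% of all genes. Of the other 6, Epcam had 0.49 (SE 0.48), Vim 0.31 (SE 0.20), Twist1 0.11 (SE 0.13), Zeb1 -0.03 (SE 0.10), Cdh1 -0.17 (SE 0.18) and Ocln -0.38 (SE 0.32). That of Epcam ran from 0.24 to 0.81 when each library was left out. Without carbon-ion irradiated replicate 8 the difference of Snai1 was 0.51 (SE 0.32, adjusted p = 0.555 in edgeR). The beams were therefore not shown to differ in any of the 10.

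The mean effect over both beams called none of the 10 either, beside 0.772% of all genes (158, but 468 with DESeq2, 9 with M-titled libraries only, and 65 to 397 when each library was left out, without photon control replicates 8 and 2). Its log2 fold changes for the 10 lay between -0.24 (Zeb2) and 0.35 (Epcam), with Cdh2 at -0.23 (SE 0.11, adjusted p = 0.349 in edgeR). All 12 fibroblast, 10 endothelial, 10 muscle and 7 adipocyte markers tested were negative in it. Of these only Pdgfrb was called, in 19 of 32 leave-one-out fits and not with M-titled libraries only. The part of these cells in the mean effect was not tested.

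The irradiated groups compared directly, carbon ions less photons, gave none of 10 beside 5.08% of all genes (1041). This comparison holds any difference between the arms as well as any between the beams. That count was 57 with these groups fitted alone, 2018 with DESeq2, and from 108 (without photon-irradiated replicate 3) to 2159 (without carbon-ion irradiated replicate 3). In that comparison Cdh1 averaged 821 ± 224 CPM with carbon ions and 697 ± 104 CPM with photons, and Cdh2 averaged 36.0 ± 7.21 and 37.8 ± 5.50 CPM. The log2 differences of the Snail genes were 0.03 for Snai1 (SE 0.27) and 0.02 for Snai2 (SE 0.14). Without carbon-ion irradiated replicate 8, the library at 24.0 CPM, that of Snai1 was -0.31 (SE 0.23). Cdh1 had 0.24 (SE 0.13), Vim 0.23 (SE 0.14), Ocln 0.20 (SE 0.23) and Zeb2 0.09 (SE 0.16), while Zeb1 had -0.06 (SE 0.07), Cdh2 -0.07 (SE 0.16) and Twist1 -0.11 (SE 0.10). Epcam had the largest difference, 0.61 (SE 0.34, adjusted p = 0.251 in edgeR), which ran from 0.42 to 0.95 when each library was left out.

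The untreated controls of the arms also differed. In edgeR, 4 of the 10 transition genes passed when carbon-ion controls were compared with photon controls, 1 higher and 3 lower, where 9.14% of all genes passed (1871). With M-titled libraries only, the comparison called 1 of the 10, where 973 of 21134 genes passed. Cdh1 was 1.33-fold higher in the carbon-ion controls, and Cdh2, Snai1 and Snai2 were lower. Photon controls enter both this comparison and the photon effect, so the values of the 2 comparisons are not independent. The D titles occur in the carbon-ion arm alone, so within D titles the arms cannot be compared.

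Cdh1, which lies on chromosome 8 at 106603351-106670246 (GRCm38, plus strand), had lowest, median and highest levels of 652, 851 and 944 CPM in carbon-ion controls and of 496, 624 and 749 CPM in photon controls. All 8 carbon-ion controls lay above the photon control median, and the ranges overlapped between 652 and 749 CPM. The log2 difference was 0.41 (SE 0.13, adjusted p = 0.0404 in edgeR). The call was kept in 3 of 16 fits that leave out 1 control library (carbon-ion replicate 5, photon replicates 4 and 5), with the log2 difference between 0.38 and 0.47 throughout. With M-titled libraries only it was 0.37 (adjusted p = 0.232).

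Cdh2 had levels of 22.95, 32.6 and 61.2 CPM in carbon-ion controls and of 35.1, 53.3 and 72.9 CPM in photon controls. Of the carbon-ion controls 7 lay below every photon control; the exception, replicate 1, was above the photon median. The log2 difference was -0.65 (SE 0.16, adjusted p = 0.0112 in edgeR). It passed in all 16 fits that leave out 1 control library, with adjusted p between 0.000866 and 0.0424, and with M-titled libraries only. Cdh2 overlaps the predicted gene Gm15485 on the other strand. The means of the carbon-ion arm, 34.6 CPM untreated and 36.0 CPM irradiated, and of the photon-irradiated tumours, 37.8 CPM, were nearly equal, and photon controls stood apart at 54.3 CPM.

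Snai1 had levels of 4.89, 8.59 and 11.4 CPM in carbon-ion controls and of 8.92, 11.2 and 25.5 CPM in photon controls. Photon control replicates 3 and 8, at 25.5 and 24.5 CPM, lay well above the other 6, of which the highest had 15.1 CPM. The log2 difference was -0.83 (SE 0.27, adjusted p = 0.0479 in edgeR). It was called in 4 of 16 leave-one-out fits (carbon-ion replicate 5, photon replicates 1, 2 and 4) and was -0.66 without photon replicate 3.

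Snai2, on chromosome 16 at 14705852-14709385 (plus strand), had levels of 5.30, 6.24 and 8.78 CPM in carbon-ion controls and of 6.28, 9.09 and 12.8 CPM in photon controls. No carbon-ion control reached the photon control median. The log2 difference was -0.44 (SE 0.14, adjusted p = 0.0488 in edgeR) and was called in 3 of 16 leave-one-out fits (carbon-ion replicates 1 and 5, photon replicate 2). With M-titled libraries only, Snai1 had -0.79 (adjusted p = 0.241) and Snai2 -0.53 (adjusted p = 0.110).

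Of the 6 that were not called, 3 had an unadjusted p under 0.05. These were Ocln (log2 difference 0.58, SE 0.23, adjusted p = 0.110), Zeb2 (-0.40, SE 0.16, adjusted p = 0.125) and Twist1 (-0.23, SE 0.10, adjusted p = 0.135). In edgeR fits without carbon-ion control replicate 5, Ocln and Zeb2 passed (adjusted p = 0.0449 and 0.0386). Epcam, Vim and Zeb1 had log2 differences of 0.12, -0.09 and -0.03. The ratio of Cdh1 to Cdh2 in the same library describes the cadherins together: it averaged 25.4 ± 4.76 in untreated and 22.97 ± 4.62 in irradiated tumours of the carbon-ion arm, and 12.3 ± 3.73 and 19.03 ± 5.06 in those of the photon arm (SD, n = 8 each).

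Some stromal markers differed between the controls as well, where 9.14% of all genes were called. The 12 fibroblast markers had a median log2 difference of -0.59, all 12 negative, with Col6a3, Pdgfra and Col1a2 called; their sum ran from 7219 to 18660 CPM in carbon-ion controls (median 11690) and from 13890 to 29470 in photon controls (median 17870). All 10 endothelial markers were negative (median -0.43), with Emcn and Esam called. None of the 10 macrophage markers was called (median -0.03). None of 7 adipocyte markers tested was called either, but all 7 were positive, with a median of 1.31 and sums up to 409 CPM in carbon-ion controls (median 33.2) and up to 99.5 CPM in photon controls (median 25.8). Of the 10 ductal markers, Cldn4 and Msln were called higher and Sox9 lower in carbon-ion controls. With M-titled libraries only, all 8 of these marker calls were lost, with adjusted p between 0.0702 (Cldn4) and 0.274 (Pdgfra) in edgeR. Col1a2 was kept in 3, Sox9 in 4, Msln in 7, Esam in 10, Pdgfra in 11, Emcn in 14, Cldn4 in 15 and Col6a3 in all 16 fits that leave out 1 control library. The part of these cell types in the values of Cdh1, Cdh2, Snai1 and Snai2 was not tested.

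Other genes of the pathway, in lists chosen with earlier results of these data known, were read beside the 10. Over all 20474 genes, 1050 were called higher and 821 lower in carbon-ion controls, 9.14% in all, which is the background for the counts that follow. Of 30 further epithelial junction and surface genes, 5 were called higher and none lower in carbon-ion controls than in photon controls, with a median log2 difference of 0.13. Crb3, a polarity protein, averaged 19.9 ± 2.86 and 12.7 ± 2.51 CPM (log2 difference 0.65, SE 0.15, adjusted p = 0.00554 in edgeR). The claudins of tight junctions were among them: Cldn7 at 4.03 ± 1.81 and 1.77 ± 0.718 CPM, and Cldn4 at 7.49 ± 4.31 and 2.88 ± 1.48 CPM. Cldn3 was called at a low level, 0.692 ± 0.977 against 0.137 ± 0.160 CPM. Among M-titled libraries Crb3 and Cldn3 were called, and Cldn7 and Cldn4 were not (adjusted p = 0.0630 and 0.0702 in edgeR). The remaining called gene, Rab25, was named after its value was seen, as were Mmp14 and Met in the lists that follow.

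Of 12 epithelial regulators tested, 4 were called higher in carbon-ion controls and none lower. Ehf, an epithelial ETS factor, averaged 76.8 ± 13.9 CPM against 38.3 ± 16.04 CPM (log2 difference 1.002, SE 0.20, adjusted p = 0.00249 in edgeR), and the call was kept in all 16 leave-one-out fits. The grainyhead factor Grhl2, which maintains junction genes, was scarce, at 1.75 ± 0.911 against 0.660 ± 0.253 CPM (adjusted p = 0.00486). Klf4 averaged 44.3 ± 7.90 against 32.1 ± 4.41 CPM, and Grhl1 2.04 ± 0.381 against 1.20 ± 0.493 CPM. Klf4 was not called with M-titled libraries only (adjusted p = 0.115 in edgeR), and Grhl1 was called in 8 of 16 leave-one-out fits. None of the 5 simple epithelial keratins was called, with all 5 positive.

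Among 24 further mesenchymal genes, 2 were called higher and 3 lower in carbon-ion controls, with 19 negative and a median of -0.33. The matrix glycoproteins Fn1 and Tnc were lower, at 2710 ± 613 against 4452 ± 1007 CPM for Fn1 (log2 difference -0.72, SE 0.18, adjusted p = 0.0133 in edgeR) and 1918 ± 408 against 2903 ± 388 CPM for Tnc (-0.60, SE 0.15, adjusted p = 0.0132). The calcium-binding protein S100a4 was higher, at 77.3 ± 28.2 against 29.6 ± 11.3 CPM, and so was the cadherin Cdh6, at 145 ± 27.7 against 100 ± 27.7 CPM. The remaining called gene, the membrane protease gene Mmp14, was lower. In M-titled libraries alone S100a4 and Tnc were called, and Fn1 and Cdh6 were not (adjusted p = 0.0911 and 0.188 in edgeR). The genes called in this list thus did not move in 1 direction.

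The 18 ligands, receptors and mediators that induce the transition gave 4 lower and 1 higher, the receptor gene Met. Smad3, a signal transducer of TGF-beta receptors, averaged 239.7 ± 43.4 CPM in carbon-ion controls and 342 ± 71.2 CPM in photon controls (log2 difference -0.51, SE 0.11, adjusted p = 0.00337 in edgeR). The receptor gene Egfr had a log2 difference of -0.48 (SE 0.11), and the ligand genes Tgfb1 and Tgfb2 had -0.39 (SE 0.10) and -0.57 (SE 0.15). Egfr was not called with M-titled libraries only (adjusted p = 0.0669 in edgeR). Of 16 other linked transcription factors only Sox9 was called, lower in carbon-ion controls and in 4 of 16 leave-one-out fits. Of 13 cofactors of Snail and Zeb proteins, Hdac1 was lower and Usp27x higher, in 8 and 5 of 16 such fits. None of Sox9, Hdac1 and Usp27x was called with M-titled libraries only (adjusted p = 0.141, 0.0788 and 0.111 in edgeR).

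In the photon effect the same lists gave few calls, 1 of 30 junction genes, 1 of 12 regulators, 1 of 24 mesenchymal genes and 1 of 18 inducers, beside 3.81% of all genes, a background near which a single call says little about a list. Marveld3, a tight junction protein, rose from 2.41 ± 1.43 to 4.78 ± 2.03 CPM, a call kept in 3 of 16 leave-one-out fits (adjusted p = 0.0490 in edgeR). Ehf rose from 38.3 ± 16.04 to 68.6 ± 17.4 CPM (log2 fold change 0.84, SE 0.20, adjusted p = 0.0203), in 14 of 16 such fits. Cdh6, at 100 ± 27.7 CPM in controls, rose (log2 fold change 0.57, SE 0.15, adjusted p = 0.0260), in 10 of 16; the mesenchymal list as a whole had 20 of 24 negative values and a median of -0.24. The receptor gene Tgfbr2 fell by 0.39 on the log2 scale (SE 0.11, adjusted p = 0.0463), in 3 of 16. Marveld3 and Tgfbr2 were not called with M-titled libraries only (adjusted p = 0.0713 and 0.0673 in edgeR). Marveld3, Ehf and Cdh6 are the epithelial junction gene, the epithelial regulator and the mesenchymal gene of their lists that passed; no other gene of these 3 lists did. In the mean effect over both beams Cdh6 passed as well (log2 fold change 0.47, SE 0.10, adjusted p = 0.0260 in edgeR), in 27 of 32 leave-one-out fits but not with M-titled libraries only (adjusted p = 0.0554). Carbon ions alone called none, and the smallest p among the junction genes was that of F11r (log2 fold change 0.26, SE 0.10, adjusted p = 0.682).

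When the irradiated groups were compared directly, 1 of 30 junction genes, 3 of 18 inducers and 1 of 13 cofactors were called and none of the other 4 lists, beside 5.08% of all genes. The calls were for Cldn7 (log2 difference 1.39, SE 0.32, adjusted p = 0.0195 in edgeR) and the receptor gene Tgfbr1 (0.42, SE 0.10, adjusted p = 0.0195), both higher after carbon ions than after photons. Smad3, the ligand gene Wnt5a and the ubiquitin ligase gene Fbxw7 were lower, with log2 differences of -0.38, -0.54 and -0.22. The comparison also holds the difference between the arms. In untreated controls Cldn7 had a log2 difference of 1.19 and Smad3 of -0.51, both called, while Tgfbr1, Wnt5a and Fbxw7 were not called there. Cldn7 and Tgfbr1 were called in 14 of 16 leave-one-out fits each, and Smad3, Wnt5a and Fbxw7 in 4, 6 and 3; these last were not called with M-titled libraries only (adjusted p = 0.110, 0.195 and 0.168 in edgeR), while Cldn4 and the adhesion gene Ncam1 then were (adjusted p = 0.0330 and 0.0301). The macrophage markers C1qa, C1qb, C1qc and Csf1r were higher after carbon ions in this comparison, with C1qc kept in all 16 such fits, C1qb in 12, Csf1r and C1qa in 11 each, and C1qa lost with M-titled libraries only (adjusted p = 0.0545). All 10 muscle markers (median 3.04) and 7 of 8 leukocyte markers (median 0.52) were positive, with none called. Of 12 fibroblast markers 6 were positive, and of 10 endothelial markers 5, again with none called.

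How the 10 genes varied together was measured over the 32 libraries after the mean of each group was taken from log2 CPM, so that differences between groups play no part. Of 45 pairs, 14 had an adjusted permutation p under 0.05 (two-sided, 100000 permutations within groups, adjusted over the 45). Libraries high in Cdh1 were high in Ocln (Pearson r = 0.78, Spearman rho = 0.61, permutation p = 1e-05, the smallest the permutations can give, adjusted p = 0.000225) and low in Zeb2 (r = -0.77, rho = -0.70, permutation p = 1e-05, adjusted p = 0.000225). Without the 2 libraries farthest from the median of the x axis, r was 0.64 for Cdh1 with Ocln and -0.71 for Cdh1 with Zeb2. Within M-titled libraries r was 0.81 and -0.78; the 4 and 3 D-titled libraries of 2 groups are too few for an r of their own.

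Zeb2 ran with Snai1 (r = 0.67, rho = 0.65, permutation p = 4e-05, adjusted p = 0.0006) and against Ocln (r = -0.66, rho = -0.52, permutation p = 7e-05, adjusted p = 0.000788). Epcam ran with Ocln (r = 0.67, rho = 0.69, permutation p = 0.00014, adjusted p = 0.00126). Without the 2 farthest libraries these r were 0.61, -0.53 and 0.55, and within M-titled libraries 0.70, -0.73 and 0.73. Ocln was thus high where Cdh1 or Epcam was high, Zeb2 was low where Cdh1 or Ocln was high, and Zeb2 was high with Snai1. Of these genes, Epcam, Ocln and Snai1 hold the E-box sites printed above, the windows of Zeb2 hold none, and no promoter was found for Cdh1. Whether the sites bear on this pattern was not tested.

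Zeb1 had no part in this pattern. Its r with Cdh1 was 0.02 (rho = -0.03, permutation p = 0.933, adjusted p = 0.954) and with Zeb2 0.15 (rho = 0.25, permutation p = 0.453, adjusted p = 0.600). Its single pair past the threshold was Twist1 (r = -0.63, rho = -0.62, permutation p = 0.0003, adjusted p = 0.00225, r = -0.59 without the 2 farthest libraries and -0.64 within M-titled libraries). The rho of the 6 pairs with an adjusted p given as under 0.05 so far had adjusted permutation p between 0.00225 and 0.0255. Cdh1 and Cdh2, the cadherins often contrasted in the transition, had r = 0.20 (rho = 0.23, permutation p = 0.277, adjusted p = 0.430), and Cdh1 with Vim had r = 0.32 (rho = 0.45, permutation p = 0.0945, adjusted p = 0.185).

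The other 8 of the 14 pairs passed with all libraries and did not pass without the 2 farthest, so their calls depend on those libraries. They were Ocln with Snai1 (r = -0.62, and -0.40 without the 2 farthest libraries), Epcam with Zeb2 (-0.56 and -0.43), Epcam with Snai1 (-0.54 and -0.35), Vim with Cdh2 (0.52 and 0.38), Cdh1 with Snai1 (-0.51 and -0.37), Snai1 with Snai2 (0.49 and 0.32), Cdh2 with Snai2 (0.47 and 0.27) and Cdh1 with Epcam (0.46 and 0.28). Their adjusted permutation p lay between 0.00934 and 0.0496 for r and between 0.0145 and 0.152 for rho. Each kept its sign, and none kept an adjusted permutation p under 0.05 without the 2 libraries. Within M-titled libraries Vim with Cdh2 (r = 0.40), Cdh1 with Snai1 (-0.54) and Cdh2 with Snai2 (0.39) did not pass either. Epcam with Cdh2 (r = -0.60, adjusted p = 0.0169) and Vim with Snai1 (r = 0.52, adjusted p = 0.0243), which missed the permutation threshold over all libraries, passed there.

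**Figure D3:**
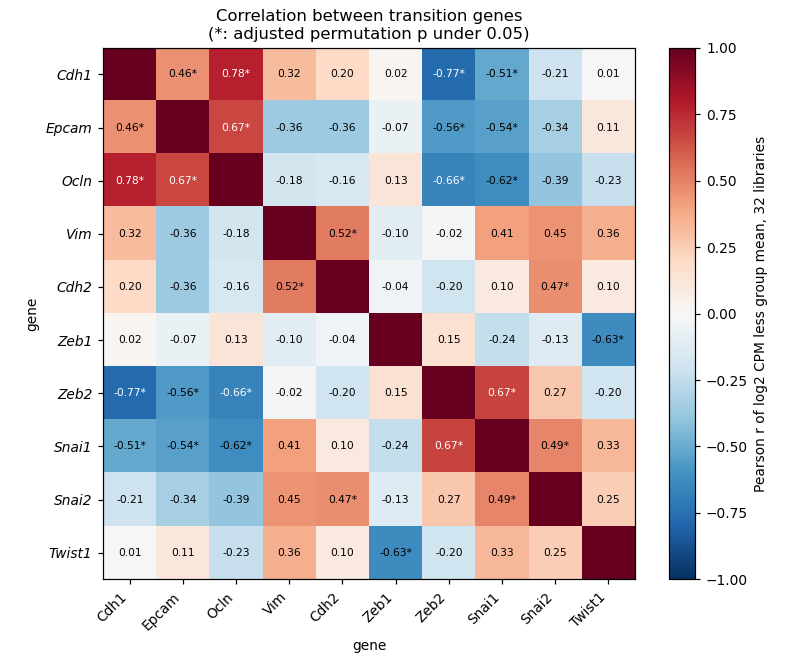
Pearson r between each pair of genes (both axes list the 10 genes) over 32 libraries, from log2 CPM less the group mean; colour and printed value give r and an asterisk an adjusted permutation p under 0.05. Cdh1, Epcam and Ocln have positive r with each other, and their r with Zeb2 and Snai1 is negative, from -0.51 to -0.77; not all of these pairs pass without the 2 farthest libraries.

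The same libraries were read for markers of cell types, as the mean log2 CPM of each of 9 lists, giving 90 pairs of a list and a gene. Cdh1 followed the ductal and tumour epithelium markers (r = 0.86, rho = 0.82, permutation p = 1e-05, adjusted p = 0.000225), and so did Ocln (r = 0.69, rho = 0.61, permutation p = 8e-05, adjusted p = 0.0012) and Epcam (r = 0.65, rho = 0.69, permutation p = 0.00015, adjusted p = 0.00169). Without the 2 farthest libraries these were 0.80, 0.56 and 0.57. None of the 10 transition genes is in a marker list. Of the ductal list, 4 genes are simple keratins, which the keratin list also holds, and Cldn4, Muc1 and Sox9 stand in other lists too.

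Zeb2 ran against the ductal markers (r = -0.84, rho = -0.82, permutation p = 1e-05, adjusted p = 0.000225) and with those of leukocytes (r = 0.64, rho = 0.68, permutation p = 0.00066, adjusted p = 0.00581) and macrophages (r = 0.55, rho = 0.60, permutation p = 0.00116, adjusted p = 0.0087). Without the 2 farthest libraries r was -0.80, 0.60 and 0.70. Libraries with more ductal marker RNA thus had less Zeb2.

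Snai1 followed the fibroblast markers most closely (r = 0.81, rho = 0.78, permutation p = 1e-05, adjusted p = 0.000225, r = 0.74 without the 2 farthest). It also ran with adipocyte (r = 0.70, rho = 0.70, permutation p = 1e-05, adjusted p = 0.000225), macrophage (r = 0.69, rho = 0.67, permutation p = 2e-05, adjusted p = 0.00036) and endothelial markers (r = 0.68, rho = 0.73, permutation p = 0.00014, adjusted p = 0.00169). Without the 2 farthest libraries these r were 0.70, 0.68 and 0.60. The adipocyte level is a mean that includes markers near 0 CPM, such as Adipoq, Plin1 and Lep. Within M-titled libraries r was 0.89 for Cdh1 and -0.82 for Zeb2 with the ductal markers, and 0.84 for Snai1 with the fibroblast markers. The rho of the 10 pairs of a gene and a list named so far had adjusted permutation p between 0.000225 and 0.0036.

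Vim, Cdh2, Zeb1, Snai2 and Twist1 had no pair whose Pearson r had an adjusted permutation p under 0.05 among the 9 lists. The rho of Vim with the adipocyte markers was 0.45 (adjusted permutation p = 0.0462). Within M-titled libraries, Vim with the acinar list (r = -0.61, adjusted permutation p = 0.0188) and Snai2 with the adipocyte markers (r = 0.50, adjusted p = 0.0484) passed. Twist1 had r = 0.43 with the fibroblast markers (adjusted permutation p = 0.0971), Vim 0.32 (adjusted p = 0.224) and Cdh2 -0.14 (adjusted p = 0.669). Over all 32 libraries, 17 of 90 pairs passed by r, all of them with Cdh1, Epcam, Ocln, Zeb2 or Snai1. The other 7, Epcam, Ocln and Zeb2 with the acinar list (1 gene, Cela1), Zeb2 with adipocyte, fibroblast and endothelial markers and Snai1 with ductal markers, had r between 0.47 and 0.62 in size. Of these, Zeb2 with the adipocyte markers kept an adjusted permutation p under 0.05 without the 2 farthest libraries (r = 0.51, adjusted p = 0.0266). Within M-titled libraries Zeb2 with the acinar list (adjusted permutation p = 0.0536) and with fibroblast and endothelial markers (0.103 each) did not pass.

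**Figure D4:**
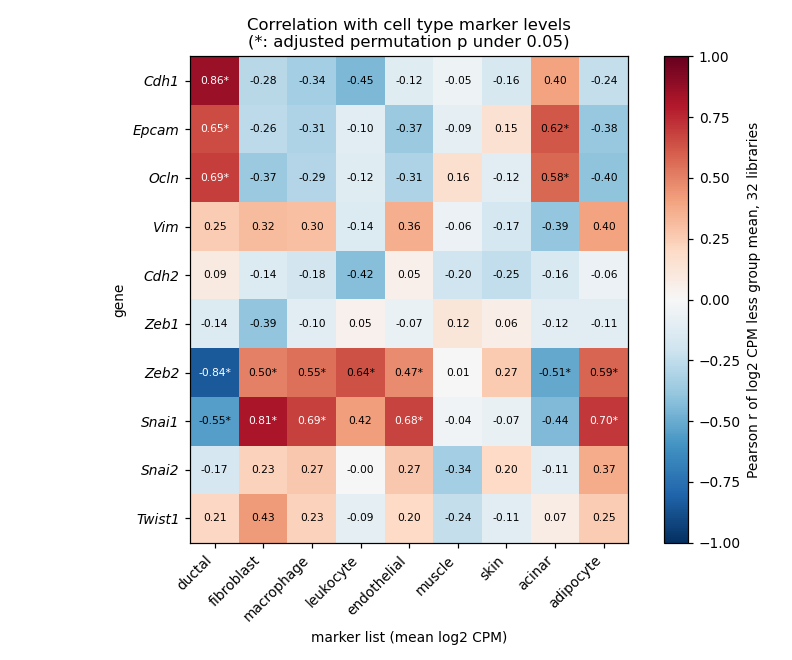
Pearson r of each gene (rows) with the level of each of 9 marker lists (columns) over 32 libraries, from log2 CPM less the group mean; an asterisk marks an adjusted permutation p under 0.05. Cdh1 with ductal markers (0.86) and Zeb2 with ductal markers (-0.84) are the strongest, and the rows of Vim, Cdh2, Zeb1, Snai2 and Twist1 hold no asterisk.

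**Figure D5:**
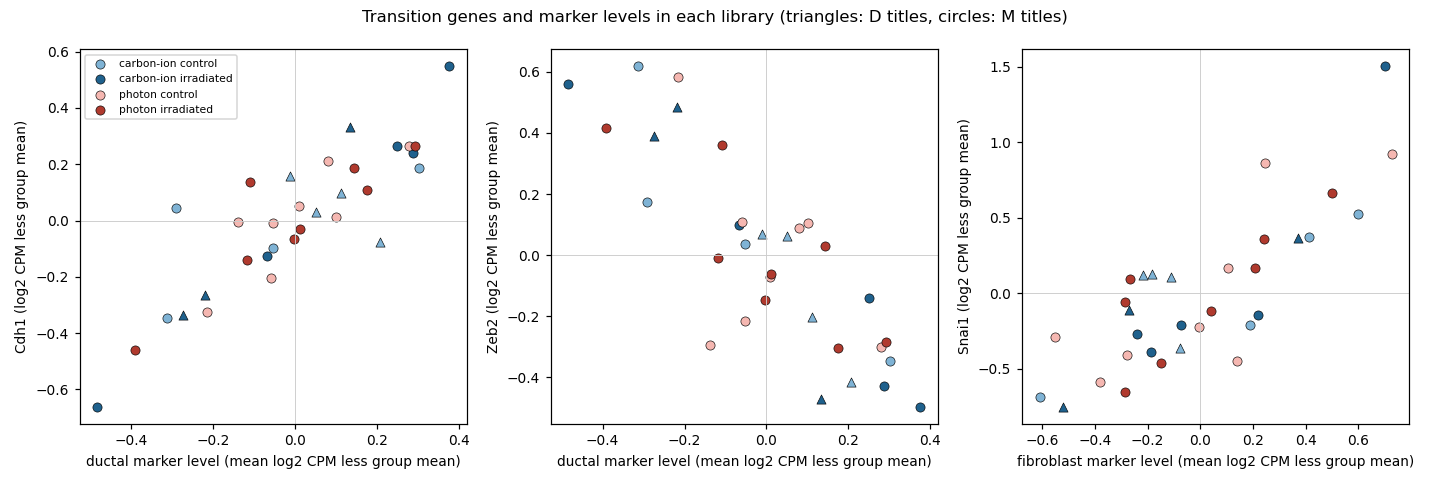
Cdh1 and Zeb2 against the ductal marker level, and Snai1 against the fibroblast marker level, in each of 32 libraries; both axes give log2 CPM less the group mean, colour gives the group and triangles mark D titles. The r values are 0.86, -0.84 and 0.81, and libraries of all 4 groups lie along each trend.

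The genes most like each transition gene across these libraries were named by the same group-centred r among 11533 genes with a mean log2 CPM of at least 2. For Cdh1 they were Me1 (r = 0.92), Chmp2b and Vil1, the last a protein of epithelial microvilli. For Epcam they were Plekhs1 (r = 0.93), St14 and Gabrp, and for Ocln the desmosomal cadherin gene Dsc2 (r = 0.92), the gap junction gene Gjb1 and Tmem45b. Vim was most like Ube2j1 (r = 0.94), Tpm4 and Capn2. Zeb2 was most like Syk (r = 0.86), a kinase of immune receptors, Gbp9 and Zdhhc14, and Snai1 was most like Tsku (r = 0.92), Vgll3 and Rab8b.

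Among the remaining 4, Cdh2 was like Pde5a (r = 0.78) and Asap2; Zeb1 most like Polk (r = 0.68), Tec and Fam13b; Snai2 most like Abitram (r = 0.73), Rrp9 and Tacr1; and Twist1 most like Tigit (r = 0.86), Nolc1 and Fmnl2. These r values describe 32 libraries and were picked as the highest of many, so no test goes with them.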

How the data were processed

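For 32 libraries the authors deposited estimated counts, 1 row per gene symbol. The submitters' processing notes name FastQC 0.12.0, Trimmomatic 0.32, RSEM 1.3.3 and build mm10, with no role or order; per the labels' protocols, RNA with an integrity number over 7.0 went into stranded mRNA libraries. No column was left without a sample. The tests were designed for whole counts, so the expected counts were rounded (library totals changed by at most 0.00403%). In R 4.3.3, edgeR 4.0.16 (filterByExpr with minimum count 10, TMM, glmQLFit and glmQLFTest) was fitted once to all 32 libraries with a coefficient per group; p-values were Benjamini-Hochberg adjusted over 20474 genes at a threshold of 0.05, and SE is the log2 fold change over the root of F. CPM and log2 CPM (prior count 2) are TMM-scaled. Exon lengths came from GENCODE M21 (GRCm38). Correlations used Python 3.11.15 with scipy 1.17.1.

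Alternatives were other scalings, DESeq2 1.42.0, no filter, the compared groups alone, M-titled libraries only, the title letter as a term, and leaving out each library. Replicate numbers follow the order of deposition. The 10 genes and all lists were chosen with earlier results of these data known. All 10 are reported whatever their values; of the other lists, the text names from up to 4 called genes with the smallest adjusted p per comparison, or the 1 with the smallest p. The model and the permutation test were tested on simulated data. Of the genes most alike, 1 is not reported here.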

Additional observations from a re-analysis of the deposited data

Results flagged for a closer look

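In each group the highest and lowest of the 8 libraries was compared with its nearest neighbour for each of the 10 genes, 40 groups in all, on log2 CPM by Dixon's test at 95% (critical value 0.526 of the group's range in log2 CPM). Chance marks about 1 in 20 such groups. Cdh2 in carbon-ion control replicate 1 was 61.2 CPM, with the next library at 34.9 CPM, a gap of 0.574 of the log2 range. Leaving it out gave a log2 difference between the controls of -0.82 for Cdh2, against -0.65 with it. Zeb2 in photon control replicate 3 was 198 CPM, with the next at 142 CPM, a gap of 0.538 of the log2 range. Without that library the photon log2 fold change of Zeb2 was -0.38 in place of -0.48 (adjusted p = 0.204 in edgeR). On linear CPM, a scale added after the values were seen, the same critical value marked 4 libraries. Besides Cdh2 (0.688 of the CPM range) and Zeb2 (0.613), these were Snai1 in carbon-ion irradiated replicate 8, at 24.0 CPM with the next at 10.9 CPM (0.691), and Epcam in photon-irradiated replicate 7, at 75.2 CPM with the next at 35.3 CPM (0.683).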

How the results depend on the processing

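No paired analysis was possible because the replicate numbers follow only the order of deposition. Of 1680 values of the 10 genes under alternatives, 1625 kept their side of the threshold, 48 lost and 7 gained the call, and none reversed a called direction. Among the 1625, 49 uncalled values changed sign; each had a log2 fold change of at most 0.21 in size in the reported fit. For the photon effect the number of the 10 genes called was 0, but 1 (Cdh2) with DESeq2, 2 (Cdh2 and Zeb2) with the compared groups alone, 1 (Cdh2) with M-titled libraries only, and 0 to 1 when each library was left out. For the controls of both arms it was 4, but 1 (Cdh2) without the low-count filter, 1 (Cdh2) with M-titled libraries only, 1 (Cdh2) with the title letter as a term, 3 with DESeq2-type size factors (Snai2 lost, adjusted p = 0.0506 in edgeR), and 1 to 6 when each library was left out (6 without carbon-ion control replicate 5). Over all genes the photon effect called 781, and from 239 (without photon control replicate 3) to 1656 (without replicate 2). It called 1518 with DESeq2 and 431 without the filter. For the controls, 1871 genes became 973 with M-titled libraries and 1081 with the title letter as a term. Of 45 correlations, 14 passed, and 6 without the 2 libraries farthest from the median. The lowest count of any of the 10 genes in a library was 120 (Snai2). The cause of each change was not tested.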
